A study of Mus musculus with 8 samples.

Results

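The 5 genes of one regulatory family were followed in mouse embryos that lacked Isl1: the cardiac GATA factors Gata4, Gata5 and Gata6 and the FOG cofactors Zfpm1 and Zfpm2. They were found by gene symbol in the deposited RNA-Seq table, and for each symbol the transcript entry with the most reads was kept, which gave 5 genes of 20701. The tissue was pharyngeal mesoderm together with the heart, taken from C57BL/6 embryos of stage E8.75 with 6 somites. Each library came from a single embryo, 4 of them Isl1-/- and 4 wild-type. The labels name no Cre driver or promoter, so nothing restricts the loss of Isl1 to one cell type of the dissection. Knockout embryo 2 alone is labelled as total RNA, and its 7 companions as polyA RNA.

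GATA factors are zinc finger proteins that bind short DNA sites built around the letters GATA. GATA4 and GATA6 act in cardiac mesoderm and also in endoderm, where they share many targets, and GATA5 is known from the early heart and the endocardium, the inner lining of the heart. FOG proteins do not act by binding DNA themselves: they dock on the amino-terminal zinc finger of a GATA factor and bring in corepressors. FOG-1, encoded by Zfpm1, is best known as the partner of GATA1 in red cell and platelet precursors, whereas FOG-2, encoded by Zfpm2, is the partner of GATA4 in the heart.

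Promoter sequences were taken from RefSeq (GRCm38.p6), and those of the other members of the 5 genes are not shown. The 250 bases before the annotated gene start are given for Gata5 and Zfpm1. Of the 5 genes, Gata5 had the largest difference between the genotypes and Zfpm1 the smallest. The windows lay at chr2:180334680-180334929 (minus strand) and chr8:122281891-122282140 (plus strand). Capitals mark GC boxes (GGGCGG) and E boxes (CACGTG) on either strand.
Gata5: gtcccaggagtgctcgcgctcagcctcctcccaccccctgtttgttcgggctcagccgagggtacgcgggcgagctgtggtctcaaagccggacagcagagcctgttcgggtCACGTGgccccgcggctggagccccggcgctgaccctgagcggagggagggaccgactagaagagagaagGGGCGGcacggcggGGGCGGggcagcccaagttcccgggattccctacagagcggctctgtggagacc
Zfpm1: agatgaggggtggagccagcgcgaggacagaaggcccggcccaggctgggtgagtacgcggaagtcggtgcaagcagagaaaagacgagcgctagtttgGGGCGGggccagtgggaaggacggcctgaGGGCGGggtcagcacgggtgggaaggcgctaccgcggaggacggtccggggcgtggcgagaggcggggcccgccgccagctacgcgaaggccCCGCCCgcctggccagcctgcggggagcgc
Both windows were rich in G and C, at 70% for Gata5 and 73.2% for Zfpm1 against a median of 52.4% over 32851 promoter windows of the same length. The Gata5 window held 2 GC boxes, 68 and 54 bases before the start, and 1 E box, 138 bases before it. The Zfpm1 window held 3 GC boxes, 151, 122 and 30 bases before the start. GC boxes were found in 32.7% of all the windows and the E box in 6.02%. A GATA site was searched on both strands, either as AGATAA, in its form TGATAA, with the ending AGATAG, or in the form TGATAG. It matched in neither window, and 26.5% of all windows held it. The homeodomain core TAAT and the CCAAT box, searched likewise, matched in neither, and 54.9% and 33.8% of all windows held them.

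Read totals over the kept transcripts lay between 18916452 and 26153039 per library, with the 2 lowest in knockout embryos 3 and 4. Isl1 was measured to check the labels, in CPM (counts per 1000000 reads after TMM scaling). By embryo number, it was at 9.72, 9.76, 26.9 and 23.3 CPM in the wild-type embryos, which were thus not uniform. In the knockout embryos it was at 1.78 to 2.40 CPM. Y-linked reads, counted over Uty, Kdm5d, Eif2s3y and Ddx3y, were present in wild-type embryo 4 and in knockout embryos 1, 3 and 4 and near 0 in the rest, so sex was not balanced between the genotypes. Reads of yolk sac endoderm genes also differed widely from embryo to embryo in both genotypes. Values of both are given beside the results they touch.

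The 3 GATA factors were lower in the Isl1 knockout, each in 4 of 4 embryos, whereas the ranges of the genotypes overlapped for both FOG genes. Gata5 was at 49.1% of its wild-type mean, Gata6 at 62.0% and Gata4 at 64.8%. Zfpm2 was at 73.0% and Zfpm1 at 88.5%. All 5 genes passed the filter on low counts, and 2 of them, Gata5 and Gata6, had an FDR (Benjamini-Hochberg adjusted p of edgeR over 14075 genes) under 0.05. Over all genes tested 0.973% passed that threshold, 0.867% with a decrease. DESeq2 called Gata4, Gata5 and Gata6, against 3.29% of all genes called with a decrease. The criteria that the study used (at least 1.5-fold, unadjusted p under 0.05) were met by Gata4, Gata5 and Gata6, against 3.93% of all genes that met them and 2.26% that did so with a decrease. Every knockout embryo lay below every wild-type embryo for the same 3 genes, against 6.33% of all genes. The median log2 fold change was -0.63 over the 5 genes and 0.01 over all genes. In dissected tissue, fewer cells that express a gene and less of its RNA per cell cannot be told apart.

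**Figure D1:**
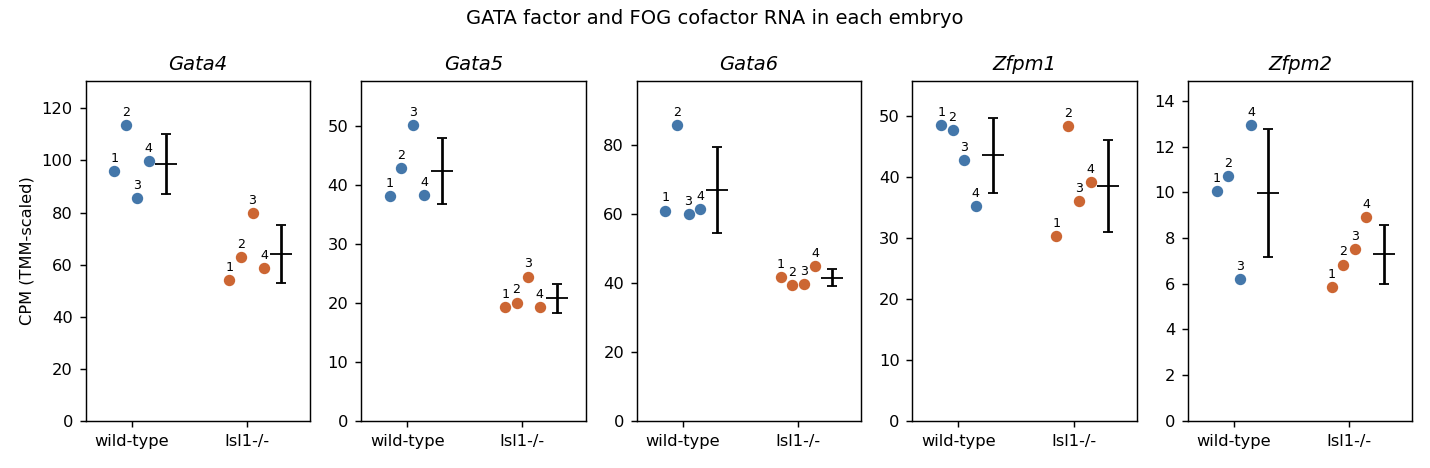
CPM (linear axis from 0) of the 5 genes in each embryo; numbers beside the points are embryo numbers, and the black bar gives the mean and SD of 4 embryos. The knockout points lie below all wild-type points for Gata4, Gata5 and Gata6, and the groups overlap for Zfpm1 and Zfpm2, each with 1 knockout point below the lowest wild-type point.

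Gata4 encodes the factor that cardiac progenitors use to open and activate many heart genes. Its transcript entry (NM_001310610; gene on chromosome 14 of mm9, 63817759 to 63890529, minus strand) gave 96.0, 113, 85.5 and 99.8 CPM in the wild-type libraries, listed by embryo number, and 54.3, 62.8, 79.8 and 58.8 CPM in the Isl1-/- libraries. Knockout embryo 3 came close to the lowest wild-type embryo, and the groups did not overlap. The means were 98.7 ± 11.5 and 63.9 ± 11.1 CPM (SD, n = 4 each). On the log2 scale Gata4 differed by -0.63 (SE 0.13, edgeR FDR 0.0532) and so missed the threshold. It passed without wild-type embryo 3 (FDR 0.0250) or without knockout embryo 3 (-0.75, FDR 0.0147), and over 14 alternative settings its FDR or adjusted p ran from 0.000114 with DESeq2 to 0.177, under 0.05 in 5. The second Gata4 entry of the table held the same reads to within 5 per library.

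Gata5 had the largest difference of the 5. Its entry (NM_008093; gene at chromosome 2, 180059838 to 180069404, minus strand) gave 38.2, 42.9, 50.2 and 38.4 CPM in the wild-type libraries, listed by embryo number, and 19.4, 20.1, 24.5 and 19.4 CPM in the Isl1-/- libraries. The highest knockout embryo thus stayed well under the lowest wild-type embryo. The means were 42.4 ± 5.61 and 20.8 ± 2.48 CPM (SD, n = 4 each), a log2 fold change of -1.03 (SE 0.12, edgeR FDR 0.0032). It fell under all 14 alternative settings, with log2 fold changes between -1.11 and -0.93 and an adjusted p of at most 0.0182. An antisense gene model, Gm14318, shares 258 of 3277 exonic bases with Gata5, and reads of the 2 strands were counted together.

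Gata6 is the close relative of Gata4 in cardiac mesoderm and endoderm. Its entry (NM_010258; gene at chromosome 18, 11052508 to 11085633, plus strand) gave 61.0, 85.8, 60.0 and 61.5 CPM in the wild-type libraries, listed by embryo number, and 41.9, 39.5, 39.8 and 45.0 CPM in the Isl1-/- libraries. Wild-type embryo 2 stood far above the other wild-type embryos, while the knockout embryos lay close together. The means were 67.1 ± 12.5 and 41.6 ± 2.53 CPM (SD, n = 4 each), a log2 fold change of -0.69 (SE 0.12, edgeR FDR 0.0278). Without wild-type embryo 2 the value was -0.55 and still passed (FDR 0.0223), as it did without wild-type embryo 3 (FDR 0.0192). Leaving out wild-type embryo 1 or 4 gave an FDR of 0.0626 or 0.0541. Leaving out knockout embryo 1, 2, 3 or 4 gave 0.0895, 0.0628, 0.0806 or 0.0699. The call was thus lost without any 1 of these 6 embryos, while the log2 fold change stayed between -0.73 and -0.66. An antisense gene model, 1010001N08Rik, shares 58 of 3194 exonic bases with Gata6.

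Zfpm1 encodes FOG-1. Its entry (NM_009569; gene at chromosome 8, 124806039 to 124861146, plus strand) gave 48.5, 47.8, 42.8 and 35.3 CPM in the wild-type libraries, listed by embryo number, and 30.3, 48.5, 36.2 and 39.3 CPM in the Isl1-/- libraries. Knockout embryo 2 was as high as the highest wild-type embryo, and only 1 of 4 knockout embryos lay below the lowest wild-type embryo. The means were 43.6 ± 6.10 and 38.6 ± 7.58 CPM (SD, n = 4 each), a log2 fold change of -0.18 with an approximate 95% interval from -0.47 to 0.12 (SE 0.15, edgeR FDR 0.579). The order of the embryos followed the Y-linked reads. The 4 embryos without them lay between 42.8 and 48.5 CPM and the 4 with them between 30.3 and 39.3 CPM, values given without a test. Among embryos with Y-linked reads the knockout mean was 100.0% of the 1 wild-type embryo. Among those without such reads the 1 knockout embryo was at 104.5% of the wild-type mean. That embryo is knockout embryo 2, the library labelled as total RNA. With Y-linked expression as a covariate the log2 fold change of Zfpm1 was 0.04 (edgeR FDR 0.909). Over its 14 alternative settings the FDR or adjusted p of Zfpm1 ran from 0.28 to 0.909.

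Zfpm2 encodes FOG-2 and was the least abundant of the 5. Its entry (NM_011766; gene at chromosome 15, 40486588 to 40936138, plus strand) gave 10.1, 10.7, 6.19 and 12.9 CPM in the wild-type libraries, listed by embryo number, and 5.84, 6.84, 7.53 and 8.91 CPM in the Isl1-/- libraries. Wild-type embryo 3 lay under 3 of the 4 knockout embryos, and the other wild-type embryos lay above all of them. The means were 9.98 ± 2.80 and 7.28 ± 1.29 CPM (SD, n = 4 each), a log2 fold change of -0.46 with an approximate 95% interval from -0.89 to -0.03 (SE 0.22, unadjusted p 0.0639, edgeR FDR 0.321). Zfpm2 passed the threshold under none of 14 alternative settings, with log2 fold changes from -0.63 without wild-type embryo 3 (FDR 0.0672) to -0.31 without wild-type embryo 4.

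**Figure D2:**
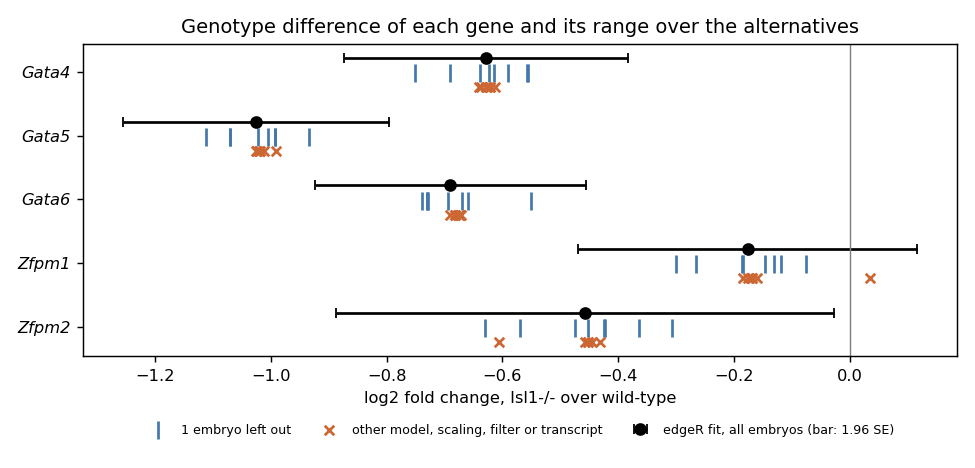
Log2 fold change of Isl1-/- over wild-type for each gene; the black point and bar give the edgeR value and its approximate 95% interval, blue marks the fits with 1 embryo left out, and orange crosses the other models, scalings, filters and transcript choices. Gata5 stays between -1.11 and -0.93, and Zfpm1 is the gene with a value above 0, at 0.04 with Y-linked expression as a covariate. The bars use a normal approximation, and that of Zfpm2 stops short of 0 although its edgeR F test gave an unadjusted p of 0.0639.

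Genotype differences of the GATA factors were also present among embryos alike in Y-linked reads, although each of these sets holds 1 embryo of one genotype and gives no test. Gata5 was at 54.9% of wild-type among the embryos with Y-linked reads and at 46.0% among those without. Gata6 was at 68.7% and 57.4%, and Gata4 at 64.4% and 63.8%. The values without Y-linked reads rest on knockout embryo 2, the library labelled as total RNA. With Y-linked expression as a covariate, Gata5, Gata6 and Gata4 had log2 fold changes of -0.99, -0.67 and -0.64 (edgeR FDR 0.014, 0.116 and 0.152).

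Levels of different genes were compared per length, in the deposited RPKM (reads per kilobase of transcript per 1000000 reads). In wild-type embryos the order was Gata4 at 16.9 ± 1.83, Gata6 at 12.2 ± 2.09, Zfpm1 at 7.49 ± 0.91, Gata5 at 7.48 ± 1.0 and Zfpm2 at 1.17 ± 0.339 RPKM (SD, n = 4). Gata4 was above Gata6 in 4 of 4 wild-type embryos, by 1.24 to 1.52 times, although their ranges over embryos overlapped. Zfpm1 and Gata5 did not differ beyond their spread, since Zfpm1 was higher in 2 of 4 embryos. The step from Gata5 down to Zfpm2 was the widest, 4.48 to 12.2 times within an embryo. Averaged over all 8 embryos, Gata4 stood above 74.2% and Zfpm2 above 20.8% of the genes tested.

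The order of the means was the same in the knockout, but Gata5 no longer lay at the level of Zfpm1. The knockout means were 11.4 ± 1.92 for Gata4, 7.89 ± 0.558 for Gata6, 6.89 ± 1.28 for Zfpm1, 3.82 ± 0.439 for Gata5 and 0.886 ± 0.159 RPKM for Zfpm2 (SD, n = 4). Gata6 and Zfpm1 now overlapped, with Gata6 higher in 3 of 4 embryos, and Zfpm1 was 1.44 to 2.35 times as high as Gata5 in every knockout embryo.

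Summed over Gata4, Gata5 and Gata6, the RNA per length ran from 33.9 to 41.7 RPKM in wild-type and from 21.4 to 26.1 RPKM in knockout embryos, with no overlap. Gata5 made up 17.8% to 25.7% of that sum in wild-type and 15.8% to 17.1% in knockout embryos. The share of Gata4 was 42.5% to 48.7% and 45.6% to 54.1%, and that of Gata6 31.8% to 36.7% and 28.8% to 37.9%. The FOG genes together amounted to 7.79 to 9.42 RPKM in wild-type and 6.21 to 9.36 RPKM in knockout embryos, so the FOG sum per GATA sum was 0.216 to 0.278 in wild-type and 0.282 to 0.426 in knockout embryos. These sums are descriptions of the 5 genes and carry no test.

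**Figure D3:**
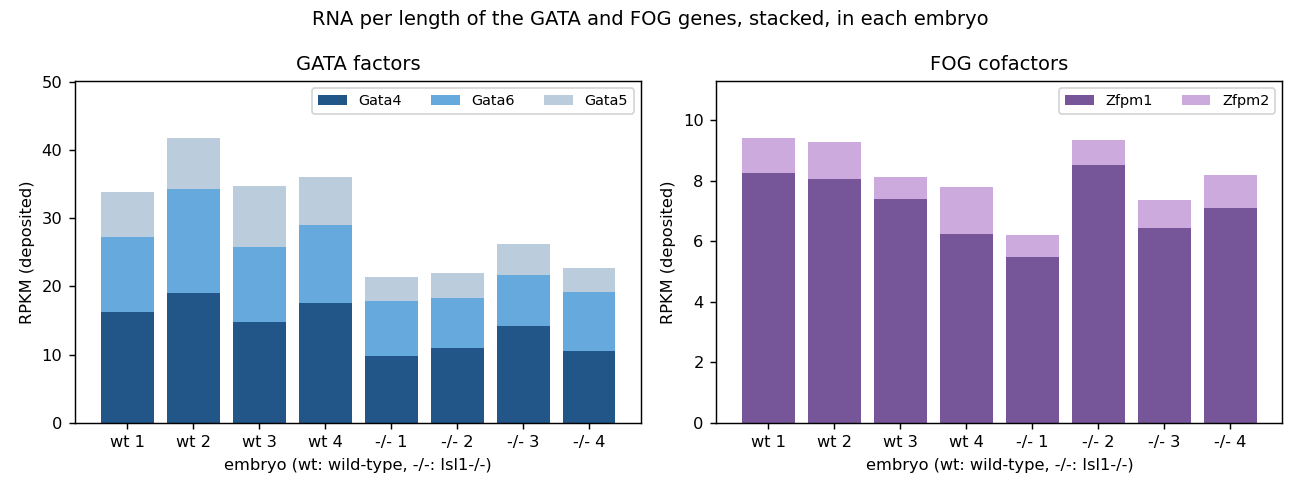
Deposited RPKM per embryo (linear axes from 0), stacked over Gata4, Gata6 and Gata5 on the left and over Zfpm1 and Zfpm2 on the right. The GATA stacks reach 33.9 to 41.7 RPKM in wild-type and 21.4 to 26.1 RPKM in knockout embryos, and the FOG stacks overlap.

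Whether the paralogues responded differently was tested with log2 ratios between pairs of genes within each embryo, which need no scaling between libraries. For Gata4 over Gata5, the wild-type log2 ratios of counts, by embryo number, were 1.33, 1.40, 0.77 and 1.38, and those of the knockout were 1.49, 1.64, 1.70 and 1.60. The ratio was higher in every knockout embryo than in any wild-type embryo, by 0.39 on average (SE 0.16, approximate 95% interval 0.00 to 0.77). By exact permutation (two-sided) p was 0.0286, the smallest value that 4 against 4 embryos allow, and an adjusted p of 0.229 over the 8 ratios tested. A ratio that alone has this smallest p cannot reach an adjusted p under 0.229 over 8 ratios. The miss of the 0.05 threshold after correction thus says nothing about Gata4 over Gata5. Without wild-type embryo 3 the difference was 0.24.

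Gata4 over Gata6 differed by 0.04 between the genotypes, with an approximate 95% interval from -0.36 to 0.44 (exact permutation p = 0.886, adjusted p = 0.971, n = 4 each). Knockout embryo 3 had the highest log2 ratio, 1.0, while its 3 knockout companions ranged from 0.37 to 0.67 and the wild-type group from 0.40 to 0.70. Gata5 over Gata6 differed by -0.35 (interval -0.81 to 0.11, exact permutation p = 0.143, adjusted p = 0.381, n = 4 each). The FOG paralogues Zfpm1 and Zfpm2 differed in their ratio by 0.24 (interval -0.53 to 1.0, exact permutation p = 0.457, adjusted p = 0.61, n = 4 each). Gata4 over its cofactor Zfpm2 differed by -0.21 (interval -0.77 to 0.34, exact permutation p = 0.371, adjusted p = 0.594, n = 4 each). The intervals for both ratios with Zfpm2 span changes of either sign, and equal responses of these genes were not shown.

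**Figure D4:**
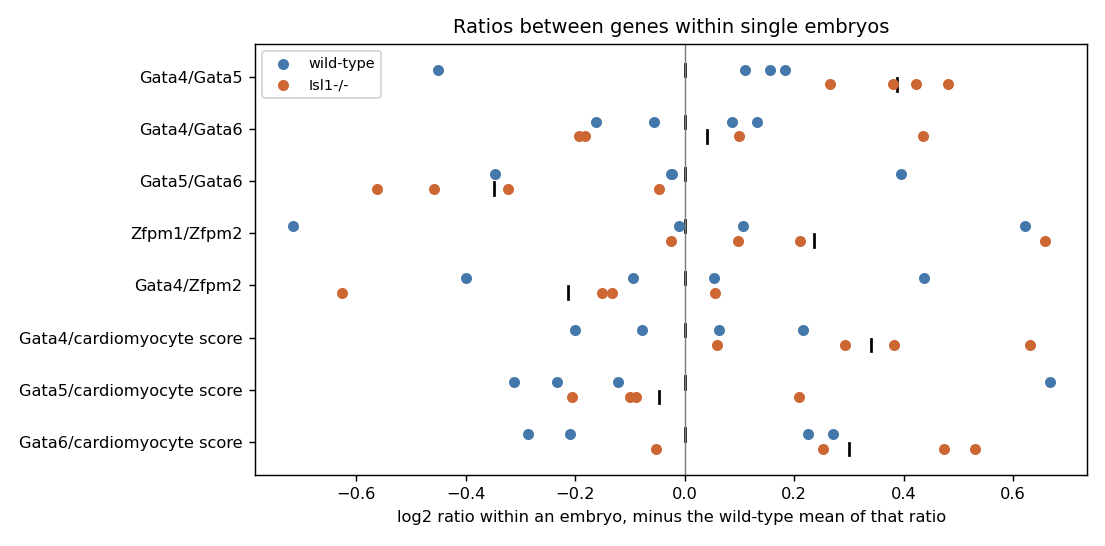
Log2 ratio within each embryo after subtraction of the wild-type mean of that ratio; points are embryos and short black lines are group means of 4. For Gata4/Gata5 the 4 knockout points lie above the 4 wild-type points, and the other ratios overlap.

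The GATA factors were then set against heart muscle. The cardiomyocyte list held 14 genes, all tested, and 12 of them fell past the FDR. Ttn (-1.38) and Myl2 (-0.88) did not pass, and the list had a median of -0.98 on the log2 scale. Among them were Myh7 (-1.18, edgeR FDR 0.00453) and Myh6 (-1.09, edgeR FDR 0.0225), the myosin heavy chains of the heart, and Tnnt2 (-0.90, edgeR FDR 0.00994), cardiac troponin T. This count was 5 without any one of wild-type embryos 1, 2 and 4 or knockout embryo 4. It was 7, 8 and 9 without knockout embryo 1, 2 and 3, and 14 without wild-type embryo 3. Summed over the list, the level was 3411 to 5090 CPM in wild-type and 1838 to 2777 CPM in knockout embryos. In log2 ratios to the mean of these 14 genes, Gata4 was higher in the knockout by 0.34 (interval -0.02 to 0.70, exact permutation p = 0.0857, adjusted p = 0.343, n = 4 each) and Gata6 by 0.30 (interval -0.18 to 0.78, exact permutation p = 0.2, adjusted p = 0.4, n = 4 each). For Gata5 the difference was -0.05 (interval -0.64 to 0.55, exact permutation p = 0.971, adjusted p = 0.971, n = 4 each). These 3 intervals are wide and include 0, so whether the GATA factors changed in step with the muscle genes was not settled by this test. The part of the lower heart muscle signal in the GATA values was not tested.

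Partner factors, which bind heart enhancers together with GATA proteins, were given by a list of 15 genes, all tested. Values were below 0 for 10 of these and above 0 for 5. Past the FDR 0 rose and 5 fell. Those that fell included Nkx2-5 (-1.40, edgeR FDR 0.00186), Tbx5 (-1.17, edgeR FDR 0.00304) and Tbx20 (-1.13, edgeR FDR 0.00186). The others were Mef2c (-0.73, edgeR FDR 0.00985) and Smarcd3, which encodes the chromatin remodelling subunit Baf60c (-0.66, edgeR FDR 0.00279). The median of the list was -0.31 against 0.01 over all genes. Srf, the serum response factor, had a log2 fold change of -0.51 (edgeR FDR 0.069). Nr2f2, which encodes the FOG-2 binding nuclear receptor COUP-TFII, was at 91.5 ± 10.7 CPM in wild-type and 95.5 ± 22.4 CPM in knockout embryos (SD, n = 4, edgeR FDR 0.864), and the acetyltransferase genes Ep300 and Crebbp had log2 fold changes of -0.04 and -0.09 (edgeR FDR 0.789 and 0.562). Nfatc4, a calcium-dependent partner of GATA4, had the highest value of the list, 0.52 (edgeR FDR 0.106).

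Genes known as targets of GATA factors in the heart were counted in the same way. Of 15 listed, 14 passed the filter on low counts, with a median log2 fold change of -0.94. Values were below 0 for 12 of the tested genes and above 0 for 2. Past the FDR 0 rose and 7 fell. Beside Nkx2-5, Mef2c, Myh6 and Tnnc1, which other lists hold too, these were Adora1, an adenosine receptor gene (-1.22, edgeR FDR 0.0034), Slc8a1, the sodium-calcium exchanger (-1.18, edgeR FDR 0.00212), and Wnt2, a ligand known as a target of GATA6 (-0.59, edgeR FDR 0.0118). Nppa and Nppb, which encode the natriuretic peptides, had larger spreads and did not pass (-1.21, edgeR FDR 0.238, and -1.10, edgeR FDR 0.175). The cell cycle gene Ccnd2 (0.00, edgeR FDR 0.984), the protease gene Corin (-0.10, edgeR FDR 0.845) and the endothelin gene Edn1 (0.23, edgeR FDR 0.458) did not pass either. Chrm2 was not tested, at a mean of 0.306 CPM in wild-type and 0.214 CPM in knockout embryos.

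BMP ligands induce GATA genes in cardiac mesoderm. Of 14 genes of the pathway, all tested, 2 fell past the FDR: the ligand genes Bmp5 (-0.43, edgeR FDR 0.0372) and Bmp7 (-0.40, edgeR FDR 0.0413). The median of the list was -0.20. The count was 0 without wild-type embryo 1 or 2 or knockout embryo 1, 3 or 4, 1 without wild-type embryo 4 or knockout embryo 2, and 4 without wild-type embryo 3. Bmp10, a ligand of heart muscle, had a log2 fold change of -1.08 (edgeR FDR 0.113), and the receptor gene Bmpr1a of -0.05 (edgeR FDR 0.766). Bmp2 and Bmp4 had values of -0.23 and -0.25 (edgeR FDR 0.554 and 0.526), and Id2, a response gene, of -0.37 (edgeR FDR 0.137).

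Corepressors that FOG proteins recruit, the NuRD and CtBP proteins, were given by 15 genes, all tested. By edgeR 0 of them passed the FDR, by DESeq2 0 as well, and 1 had an unadjusted p under 0.05: Rbbp4, a histone-binding subunit (-0.14, edgeR FDR 0.247). The median of the list was -0.02, and its log2 fold changes ran from -0.14 to 0.19. Mbd2 had the largest value in size (0.19, edgeR FDR 0.451), and Hdac2 (-0.13, edgeR FDR 0.442) and Chd3 (0.09, edgeR FDR 0.477) came after Rbbp4.

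Other genes with GATA-type zinc fingers were present at lower levels. Of Gata1, Gata2, Gata3 and Trps1, 0 passed the edgeR FDR, 0 passed with DESeq2 and 0 had an unadjusted p under 0.05. Gata2, a factor of blood and endothelium, was at 8.0 ± 1.67 CPM in wild-type and 6.05 ± 1.48 CPM in knockout embryos (SD, n = 4), a log2 fold change of -0.40 (edgeR FDR 0.358). Gata1, the erythroid factor, was at 4.57 ± 2.17 and 5.08 ± 3.63 CPM (edgeR FDR 0.888), Gata3 at 8.68 ± 2.13 and 8.41 ± 1.0 CPM (edgeR FDR 0.92), and Trps1 at 12.6 ± 4.23 and 13.2 ± 2.67 CPM (edgeR FDR 0.907).

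**Figure D5:**
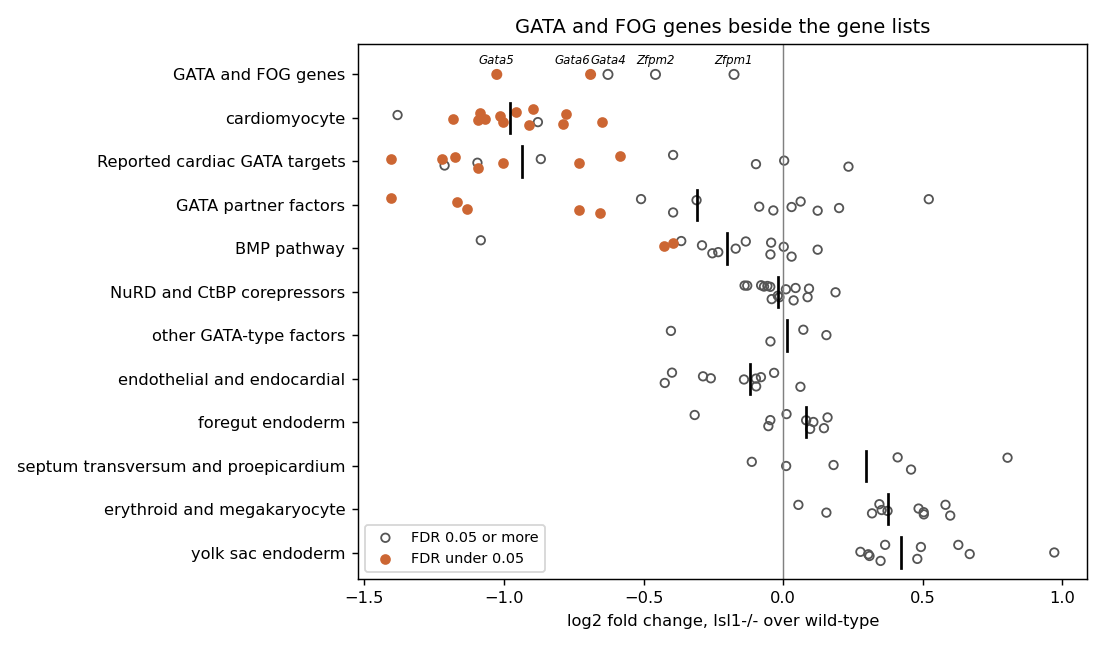
Log2 fold change of Isl1-/- over wild-type for the tested genes of each list, with the 5 GATA and FOG genes in the top row; filled points have an edgeR FDR under 0.05 and black lines are list medians. Filled points occur for Gata5 and Gata6 and in the cardiomyocyte, target, partner and BMP lists, all of them below 0.

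GATA and FOG genes are also active outside heart muscle, so markers of other cell types were compared. Yolk sac endoderm, which expresses Gata4 and Gata6, was measured with 10 genes, all tested and none at 0. All 10 had values above 0 with a median of 0.42, 0 passed the FDR by edgeR or DESeq2, and 0 had an unadjusted p under 0.05. Their summed level ran from 533 to 4649 CPM in wild-type and from 422 to 6750 CPM in knockout embryos, so the spread between embryos was far larger than the difference between genotypes. In the knockout, embryos 2 and 3 had the highest sums, 6750 and 4735 CPM, the 2 highest Gata4 values of their group, 62.8 and 79.8 CPM, and the 2 lowest Gata6 values, 39.5 and 39.8 CPM. In the wild-type the sums were 1485, 2706, 4649 and 533 CPM, listed by embryo number. Gata4 was at 96.0, 113, 85.5 and 99.8 CPM in that order, and Gata6 at 61.0, 85.8, 60.0 and 61.5 CPM. Wild-type embryo 3 thus had the highest sum and the lowest values of both genes. The next highest sum was that of wild-type embryo 2, which had the highest values of both genes. The part of yolk sac endoderm in the Gata4 and Gata6 values was not tested.

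Markers of foregut endoderm, 9 genes with 0 past the FDR by edgeR or DESeq2 and 0 with an unadjusted p under 0.05, had a median of 0.08 and summed to 294 to 450 CPM in wild-type and 304 to 461 CPM in knockout embryos. Markers of the septum transversum and proepicardium, mesoderm next to the heart in which Gata4 is active, were 6 genes with a median of 0.29, 0 past the FDR by edgeR or DESeq2 and 0 with an unadjusted p under 0.05. Values were above 0 for 5 of these 6 genes and below 0 for 1. They summed to 34.5 to 54.3 CPM in wild-type and 47.9 to 61.3 CPM in knockout embryos. Endothelial and endocardial markers, in whose tissue Gata5 is known, were 10 genes with a median of -0.12 and 0 past the FDR by edgeR or DESeq2. Values were below 0 for 9 of them and above 0 for 1. Of the 10 genes, 2 had an unadjusted edgeR p under 0.05, Emcn (-0.42, edgeR FDR 0.229) and Nfatc1 (-0.40, edgeR FDR 0.235). The list summed to 426 to 537 CPM in wild-type and 346 to 481 CPM in knockout embryos.

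Erythroid and megakaryocyte markers, the cells in which FOG-1 is best known, were given by 12 genes, of which Pf4 fell under the filter, at 0 in wild-type embryo 1 and every knockout embryo and at no more than 0.0887 CPM in the rest. The 11 tested genes had a median of 0.37, with 0 past the FDR by edgeR or DESeq2 and 0 with an unadjusted p under 0.05. By embryo number, the wild-type sums were 2427, 1551, 386 and 1196 CPM and the knockout sums 1283, 3195, 1921 and 1568 CPM. In the same order, Zfpm1 was at 48.5, 47.8, 42.8 and 35.3 CPM in wild-type and at 30.3, 48.5, 36.2 and 39.3 CPM in knockout embryos. Wild-type embryo 1 and knockout embryo 2 had the highest sums and also the highest Zfpm1. Wild-type embryo 3 had the lowest sum but not the lowest Zfpm1. Knockout embryo 3 had a higher sum than knockout embryo 4 and a lower Zfpm1. The part of these cells in the Zfpm1 values was not tested.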

How the data were processed

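Per the labels, RNA of single embryos (100 ng per library) was sequenced. The authors mapped reads to mm9 with STAR and counted them over RefSeq exons on both strands with HOMER (versions not given in the sources used here), so the deposited count columns hold raw read counts per transcript entry. The deposited RPKM columns were made by the authors with edgeR. Columns of the authors' own DESeq2 comparison (mean level, fold change, error, p-values) were not used.

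The table held 31507 entries of 20701 symbols; per symbol the entry with the highest summed count was kept. Counts were fitted in R 4.3.3 with edgeR 4.0.16 (filterByExpr, TMM, quasi-likelihood test, genotype as single term, Benjamini-Hochberg adjustment over 14075 genes, two-sided); DESeq2 1.42.0 was an alternative. SE was derived from the fold change and its F statistic. The approximate interval of a fold change uses a normal approximation, which makes it narrower than the F test allows. Ratios within embryos were log2 ratios of counts + 0.5, compared by exact two-sided permutation tests (smallest p 0.0286); their 95% intervals use the variance of the embryos. The fit was tested on simulated counts. Depth was 18916452 to 26153039 counts per library, and reads carry no molecular identifiers. The SDs and the SEs of the ratios come from the spread between embryos. The SEs of fold changes come from the edgeR fit, which pools part of its variance estimate over genes. Positions are from GENCODE vM1 on NCBIM37 (mm9), in which all 5 genes were found; promoter sequences are from RefSeq (GRCm38.p6).

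The 5 genes, the lists and the tests were chosen with earlier results of these data known. Named genes were the 5, Isl1, list genes past the FDR or else with the largest changes, and for each of the 5 the 2 other genes (mean of at least 5 CPM) with the most similar profile; a few further list genes were named after their values were seen. Alternatives were DESeq2, RLE scaling, no filter, the longest transcript, a replicate block, Y-linked expression as covariate, RPKM ratios and leaving out each embryo. Whether embryos were littermates is not stated, so p-values rest on the variation between these embryos, in edgeR and DESeq2 partly pooled over genes.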

Additional observations from a re-analysis of the deposited data

Results flagged for a closer look

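In 3 of 26 groups of 4 values tested, 1 embryo stood apart from the rest of its group by Dixon's criterion at the 95% level, which chance gives in about 1 in 20 groups. Gata6 reached 85.8 CPM in wild-type embryo 2, while the rest of that genotype had 60.0 to 61.5 CPM. Gata5 reached 24.5 CPM in knockout embryo 3, while the rest of that genotype had 19.4 to 20.1 CPM. The log2 ratio of Gata4 over Gata5 was 0.77 in wild-type embryo 3 and 1.33 to 1.40 in its 3 companions. That embryo also had the highest Gata5, 50.2 CPM, and the lowest cardiomyocyte marker sum of its group, 3411 CPM.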

How the results depend on the processing

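The directions of Gata4, Gata5, Gata6 and Zfpm2 held under all 14 alternatives, and Gata5 passed the threshold in each. Gata4 passed in 5, with log2 fold changes of -0.62 (DESeq2), -0.62 (RLE scaling) and -0.61 (no filter on low counts), and between -0.75 and -0.56 over the fits that left out 1 embryo. Gata6 no longer passed with the replicate block (-0.68, FDR 0.075) or with Y-linked expression as a covariate (-0.67, FDR 0.116), and ran from -0.74 to -0.55 with 1 embryo left out. Zfpm1 was reversed to 0.0358 with the Y-linked covariate. The number of genes past the FDR, 137, was 699 with DESeq2, 76 with the replicate block and 70 to 490 with 1 embryo left out, the highest without wild-type embryo 3. With DESeq2, 236 of the calls were higher and 463 lower in the knockout, against 15 and 122 with edgeR. The causes were not tested.

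Same-numbered embryos correlated in their deviations at 0.124, 0.195, 0.0355 and 0.559, with a mean of 0.229, and 2 of 8 embryos correlated best with their own number. The numbers were not taken as pairs, but these values do not settle whether they are. With the replicate block Gata4, Gata5, Zfpm1 and Zfpm2 kept their side of the threshold (-0.64, -1.02, -0.19 and -0.43), while the calls fell from 2 to 0 in the BMP list and from 12 to 5 in the cardiomyocyte list. DESeq2 called 4 and 13 genes of these lists. None of the 8 ratios passed the correction under any of 11 alternatives. This says nothing about stability, since a ratio that alone has the smallest possible p cannot pass with these numbers of embryos. Depth limits Zfpm2 most, at 144 to 340 reads per library.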

Other observations

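For each of the 5 genes the 2 other genes with the most similar log2 CPM over the 8 embryos were looked up among 11038 genes, as a description without a test. Closest to Gata5 were Kif26b, a kinesin family gene (r = 0.98, log2 fold change -0.48, edgeR FDR 0.048), and Nexn, which encodes the cardiac actin-binding protein nexilin (r = 0.976, -0.71, edgeR FDR 0.00799). Kif26b was 24.1 to 27.2 CPM in wild-type and 17.0 to 20.7 CPM in knockout embryos, and Nexn 83.9 to 99.3 and 50.9 to 68.2 CPM. Closest to Gata4 were Ggct (r = 0.983) and Hexim1 (r = 0.978), with log2 fold changes of -0.45 and -0.35 (edgeR FDR 0.143 and 0.114). Closest to Gata6 were Fam60a (r = 0.985) and March7 (r = 0.948), with log2 fold changes of -0.27 and -0.06 (edgeR FDR 0.129 and 0.544). Closest to Zfpm1 were Spty2d1 (r = 0.921) and Yipf4 (r = 0.917), with log2 fold changes of -0.19 and -0.06 (edgeR FDR 0.317 and 0.814). Closest to Zfpm2 were Zik1 (r = 0.97) and the Wnt signal enhancer gene Rspo3 (r = 0.955), and Rspo3 was 3.29 to 7.58 CPM in wild-type and 2.67 to 5.09 CPM in knockout embryos (edgeR FDR 0.334).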
